A study of Arabidopsis thaliana with 20 samples.

Results

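The psbB operon of the plastid genome of Arabidopsis thaliana holds 4 genes for photosystem II, psbB, psbT, psbN and psbH, which are described here with the 300 bp upstream of psbB. They were chosen by name and position, not by measured values, though with earlier results of these data known. They are 4 of the 111 plastid genes tested. The assay was IPOD (in vivo protein occupancy display). Formaldehyde fixes proteins to plastid DNA, the DNA is broken into fragments, and those carrying protein (the IPOD fraction) are sequenced beside DNA taken before that separation (input). The ratio of IPOD to input at a gene therefore says how much of its DNA was recovered with protein relative to the average of the plastid genome. It does not say which proteins were bound.

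There were 20 libraries in 6 groups. The leaf groups, 4 IPOD and 4 input libraries, came from Col0 wild-type rosettes of 14 days grown on soil, whose chloroplasts were isolated first and then fixed. The ptac3 seedling groups, 3 IPOD and 3 input libraries, and the Col0 seedling groups, 3 and 3, came from seedlings of about 4 days grown on plates in continuous light and fixed before the chloroplasts were isolated. ptac3 is a mutant of PTAC3, a protein of the plastid transcription machinery, and its allele is not named in the labels. No treatment beyond fixation was given to any group. Leaf and seedling libraries differ in age, tissue, growth and order of fixation at once, so they cannot be told apart by any of these and were not tested against each other. The labels do not say whether libraries of 1 group came from separate plants, so p-values measure the spread between these libraries.

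Most photosynthesis genes of the plastid are transcribed by the plastid-encoded RNA polymerase, a multisubunit enzyme of bacterial type, with nucleus-encoded associated proteins such as PTAC3. The psbB operon is a standard example: psbB, psbT, psbH, petB and petD are transcribed together from a promoter upstream of psbB, and the long transcript is then cut into many shorter RNAs. psbN lies between psbT and psbH on the opposite strand and is transcribed on its own. psbB encodes CP47, an inner antenna protein of the photosystem II core. psbT and psbH encode small membrane subunits, of which PsbH is phosphorylated. PsbN takes part in assembly of the complex and is not a subunit of it. petB and petD encode cytochrome b6 and subunit IV of the cytochrome b6f complex, and clpP, the next gene upstream of psbB, encodes a protease subunit.

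The genes differ widely in length, which bears on precision. psbB (ArthCp049) spans 1527 bp and begins 488 bp beyond clpP (ArthCp048). psbT (ArthCp050) spans 102 bp after a gap of 184 bp, psbN (ArthCp051) spans 132 bp after 65 bp, and psbH (ArthCp052) spans 222 bp after 104 bp. petB (ArthCp053) follows after 134 bp and petD (ArthCp054) after another 188 bp. A read covers many neighbouring bases, so psbT, psbN and psbH share reads with each other and with the gaps between them, and their values are not independent.

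Mean depth ran from 54.5 to 3383 reads per base over the 20 libraries. The spread between the 2 copies of the inverted repeat had a standard deviation (SD) per copy between 0.089 and 0.21 (log2) in a 50 bp bin. This spread did not simply fall with depth, at 0.116 for a depth of 3383 and 0.089 for 440.9. It also depends on how reads shared by the copies were placed, which is not given. Leaf libraries 1 and 3 stand apart from leaf libraries 2 and 4, for example with upstream relative depths of 1.2 and 1.16 against 0.537 and 0.821 in input. One label conflicts with another: IPOD library 3 of the Col0 seedlings is Col0 by its title but ptac3 by its cell line. It was analysed as Col0, and the Col0 values of the members, the window and the bins named are also given without it. The genotype label of the ptac3 libraries reads wild type, and their titles were followed instead. PTAC3 is a nuclear gene, so plastid reads do not show its allele, and the labels were not checked in another way.

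Depth is given relative to the mean of its library, so 1 is the average of the plastid genome. In seedlings psbB had the highest relative depth of the 5 regions in 12 of 12 libraries, and in leaf the window upstream of psbB was highest in 5 of 8 libraries and psbB in the other 3. For psbB the values were 0.846, 0.98, 0.828 and 1.14 in leaf IPOD libraries 1 to 4, against 0.846, 1.26, 0.822 and 1.06 in leaf input. They were 1.36, 1.31 and 1.23 in ptac3 IPOD against 1.45, 1.3 and 1.15 in ptac3 input, and 1.21, 1.26 and 1.25 in Col0 IPOD against 1.4, 1.4 and 1.34 in Col0 input. Only in Col0 seedlings did the IPOD and input libraries of psbB not overlap, as was so for 43.2% of the 111 genes there.

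**Figure D1:**
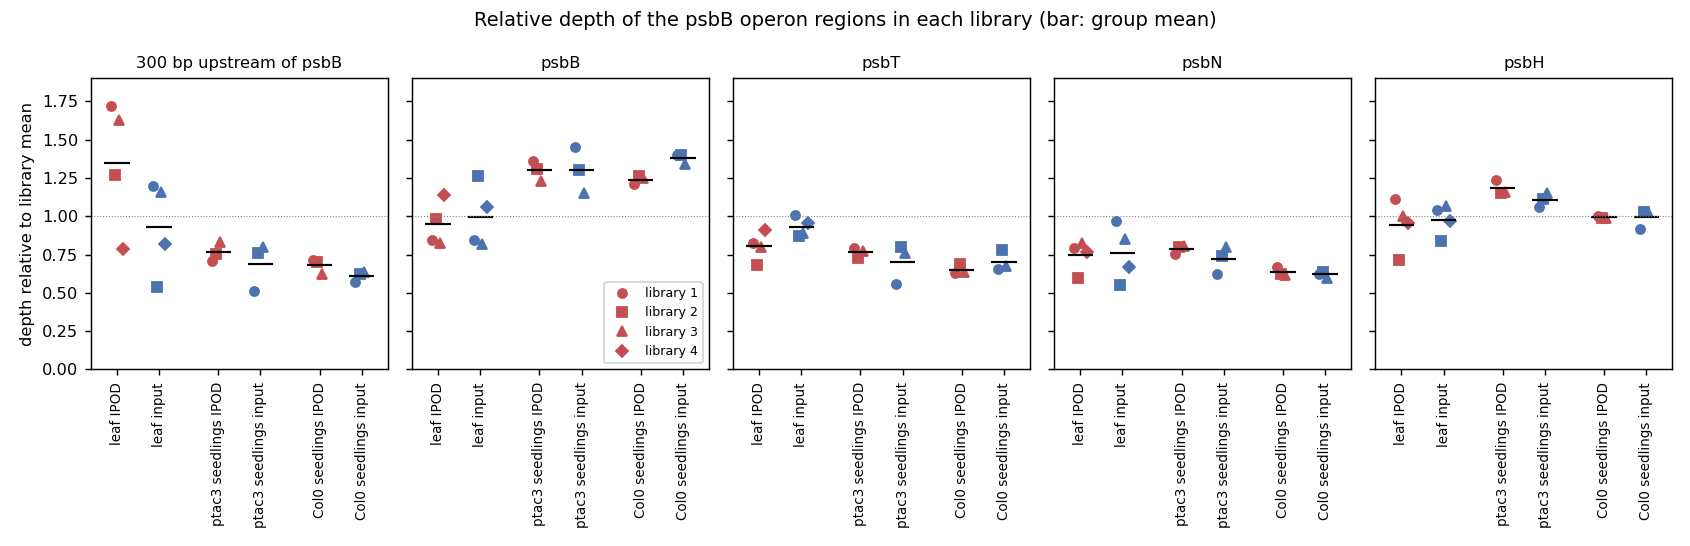
Relative depth (depth divided by the library mean, no unit) of the window upstream of psbB and of the 4 genes, 1 point per library, with IPOD in red, input in blue and bars at the group means. The upstream window ranges from 0.537 to 1.72 in leaf libraries, and psbB is above 1.1 in every seedling library.

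In seedlings psbH came next after psbB, and the remaining regions were lower and followed no single order. Mean relative depth of psbH was 1.18 ± 0.0472 in ptac3 IPOD and 1.11 ± 0.0455 in ptac3 input, and 0.993 ± 0.00919 in Col0 IPOD and 0.993 ± 0.0634 in Col0 input (SD, n = 3 each). psbT averaged 0.766 ± 0.0328 in ptac3 IPOD and 0.704 ± 0.13 in ptac3 input, and 0.652 ± 0.0325 in Col0 IPOD and 0.702 ± 0.0685 in Col0 input (SD, n = 3 each). psbN averaged 0.785 ± 0.0274 in ptac3 IPOD and 0.721 ± 0.09 in ptac3 input, and 0.637 ± 0.0265 in Col0 IPOD and 0.621 ± 0.0201 in Col0 input (SD, n = 3 each). In each seedling group the means of psbB and then psbH were highest, and the ranges of these overlapped in ptac3 IPOD. psbT, psbN and the upstream window followed in an order that varied, with overlapping ranges except in Col0 input, where psbT lay above the others. In leaf the means of psbB, psbT and psbH all lay between 0.804 and 0.996 and their ranges overlapped in both fractions, with psbN at 0.745 ± 0.104 in IPOD and 0.76 ± 0.187 in input (SD, n = 4 each).

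In leaf, the part of the operon with the highest IPOD to input ratio was the DNA upstream of psbB. Relative depth of the 300 bp window was 1.72, 1.27, 1.63 and 0.783 in leaf IPOD libraries 1 to 4, against 1.2, 0.537, 1.16 and 0.821 in leaf input libraries 1 to 4. IPOD exceeded the input of the same number in 3 of 4 pairs, and library 4 went the other way. The log2 ratios of the pairs, taken after 10% of the median bin was added to each depth, were 0.47, 1.12, 0.45 and −0.062, with a mean of 0.50 (SE 0.29, limma adjusted p = 0.546). This was rank 27 from the top among 220 windows of that length beside plastid genes, of which limma called 0%, with 22 windows at an unadjusted p under 0.05. With the library number as a block, as the correlation of same-number libraries allows in leaf, the adjusted p was 0.059, in a fit that called 24.5% of the windows.

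That value depended on which leaf libraries were used. With pair 4 left out and the number as a block, a setting chosen after seeing the data, the window stood at 0.683 with an adjusted p of 6e-07, in a fit that called 129 of 220 windows (58.6%). Pair 4 is the pair that goes the other way, so this p does not stand apart from the choice. The window stood at 0.46 in libraries 1 and 3 and at 0.53 in libraries 2 and 4, given as values with no test because that split was drawn from the depths themselves.

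Within the gene bodies the leaf ratios lay near the median of all genes, which was −0.063. The pairs of psbB gave −0.016, −0.35, −0.0073 and 0.10, with a mean of −0.067 (SE 0.17, limma adjusted p = 0.815). Pair 2 was the low one, and without it the mean was 0.027. psbH averaged −0.063 (SE 0.17, adjusted p = 0.815) and psbN −0.020 (SE 0.20, adjusted p = 0.972), each with pairs on both sides of 0. With the number as a block the limma adjusted p was 0.561 for psbB, 0.542 for psbH and 0.881 for psbN. That fit called 17.1% of the 111 genes. Centring the libraries on their median moved the median of all genes by 0.11 to 0.048, and psbB, psbN and psbH then stood at 0.044, 0.091 and 0.048. Relative to the median of all genes psbB lay at −0.0038 and psbN at 0.043.

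psbT was the one gene of the 4 with a negative leaf ratio in 4 of 4 pairs. Its relative depth was 0.823, 0.683, 0.8 and 0.909 in leaf IPOD libraries 1 to 4, against 1.01, 0.869, 0.892 and 0.954 in leaf input. The 2 fractions overlapped, because IPOD library 4 lay above input libraries 2 and 3. The pairs gave −0.28, −0.33, −0.16 and −0.065, with a mean of −0.21 (SE 0.14, limma adjusted p = 0.589, and 0.0832 with the number as a block, where 17.1% of genes were called). psbT was called with the block once pair 4 was left out (−0.25, adjusted p = 0.0253) in a fit that called 55.9% of the 111 genes, and pair 4 was its smallest ratio. The neighbours clpP, petB and petD also had negative ratios in 4 of 4 leaf pairs, with means of −0.18, −0.21 and −0.15 (adjusted p = 0.589, 0.647 and 0.657). All 4 leaf pairs had the same sign in 38.6% of all 50 bp bins, so this trait was common. In all, limma without the block called 0 of the 4 operon genes in leaf, and 0 had an unadjusted p under 0.05. Over the 111 genes it called 0%, with 10 genes at an unadjusted p under 0.05. With the block it called 0 of the 4 genes, and 1 had an unadjusted p under 0.05, against 55 of all 111 genes.

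**Figure D2:**
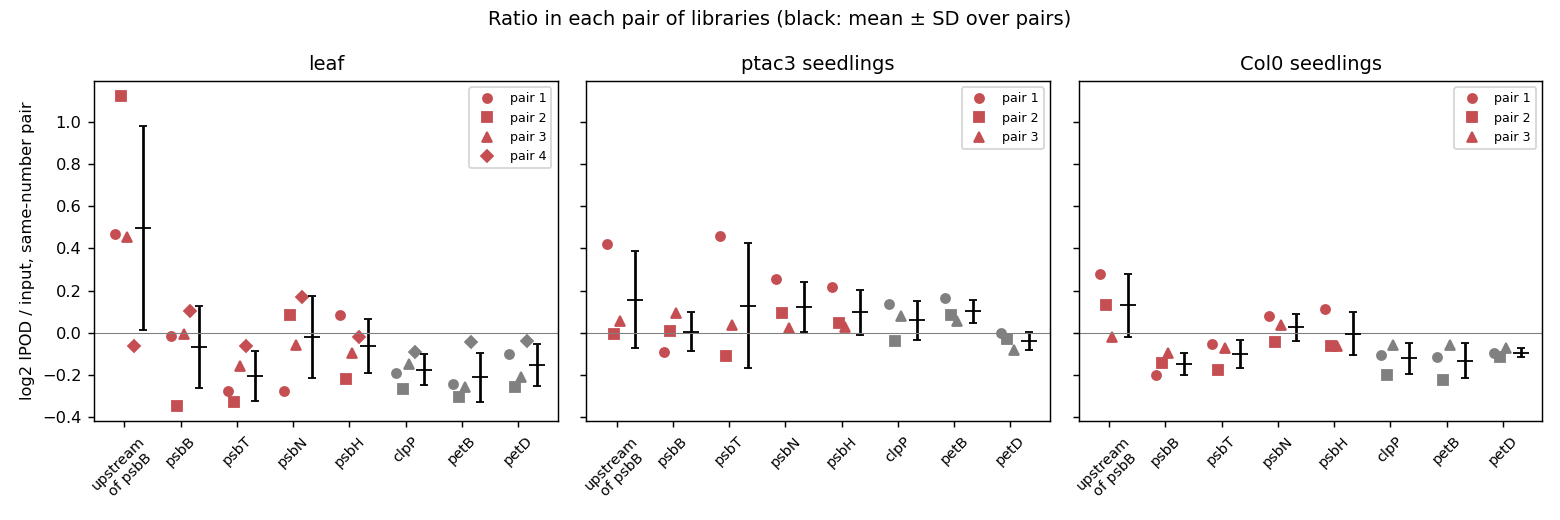
Log2 ratio of IPOD to input in each pair of libraries of the same number, for the upstream window and the 4 genes (red) and for clpP, petB and petD (grey), with mean ± SD over 4 leaf and 3 and 3 seedling pairs in black. The leaf values of the upstream window run from −0.062 to 1.12, the widest span of any region plotted, and psbB lies below 0 in all 3 Col0 pairs.

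In ptac3 seedlings the ratios of all 5 regions were small and none was called. psbB was level between the fractions, with pairs at −0.089, 0.0096 and 0.095 and a mean of 0.0052 (SE 0.075, limma adjusted p = 0.992, 95% interval −0.16 to 0.17). psbN gave 0.25, 0.092 and 0.021, and psbH gave 0.22, 0.048 and 0.025, so both lay above 0 in 3 of 3 pairs. Their means were 0.12 and 0.097 (SE 0.083 and 0.064, adjusted p = 0.953 for each). All 3 ptac3 pairs had the same sign in 37.8% of all 50 bp bins. With the number as a block the limma adjusted p was 0.324 for psbN and 0.424 for psbH. It was 0.544 for psbT and 0.974 for psbB. That fit called 0% of the 111 genes, with 15 genes at an unadjusted p under 0.05. The psbH libraries did not overlap, at 1.24, 1.15 and 1.16 in ptac3 IPOD and 1.06, 1.11 and 1.15 in ptac3 input, where 5.41% of the 111 genes had no overlap and the nearest values are equal at the digits printed.

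The first ptac3 pair carried much of these means. psbT gave 0.46 in pair 1 and −0.11 and 0.036 in pairs 2 and 3 (mean 0.13, SE 0.11, limma adjusted p = 0.953), and the upstream window gave 0.42, −0.0043 and 0.056 (mean 0.16, SE 0.13, adjusted p = 0.999). Without ptac3 input library 1, which had the lowest relative depth of its group in the upstream window (0.511) and in psbT (0.556), the means were −0.028 upstream, −0.022 in psbT, 0.024 in psbN and 0.063 in psbH. limma called 0 of the 4 genes in ptac3 seedlings and 0 had an unadjusted p under 0.05, against 0% of the 111 genes called and 5 genes at an unadjusted p under 0.05. Among the 220 windows 0% were called and 0 had an unadjusted p under 0.05. With the number as a block the upstream window had a limma adjusted p of 0.669, where 0% of windows were called.

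In Col0 seedlings psbB was lower in IPOD than in input in 3 of 3 pairs, without passing the test. The pairs gave −0.20, −0.14 and −0.096, with a mean of −0.15 (SE 0.075, 95% interval −0.31 to 0.018, limma adjusted p = 0.218). Its libraries did not overlap, but neither did those of 43.2% of the 111 genes, so psbB is not apart from the rest in this. All 3 Col0 pairs had the same sign in 54.6% of all 50 bp bins. Without the third Col0 IPOD library, whose labels disagree, the mean of psbB was −0.15 (adjusted p = 0.279). psbT gave −0.055, −0.18 and −0.072 (mean −0.10, adjusted p = 0.602, and −0.088 without that library). psbN averaged 0.026 and psbH −0.0039 (adjusted p = 0.857 and 0.96, and 0.043 and −0.0010 without that library), with the sign of psbH turning under the alternatives given in the closing section. limma called 0 of the 4 genes and 0 had an unadjusted p under 0.05. Over all 111 genes it called 10.8%, 8 higher and 4 lower, and 27 genes had an unadjusted p under 0.05.

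The upstream window of Col0 seedlings had a higher ratio than the gene it precedes in each set of libraries of the same number. Its relative depth was 0.712, 0.702 and 0.625 in Col0 IPOD, against 0.571, 0.626 and 0.633 in Col0 input, and the fractions overlapped. The pairs gave 0.28, 0.13 and −0.021, with a mean of 0.13 (SE 0.13, limma adjusted p = 0.596, with 7.27% of 220 windows called). Without the third IPOD library the mean was 0.18 (adjusted p = 0.515).

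The ratio of the window minus the ratio of psbB itself, which is free of library scaling, was 0.48, 0.28 and 0.075 in the 3 Col0 pairs, a mean of 0.28 (SE 0.18, limma adjusted p = 0.401, with 8.64% of 220 such differences called). Without the third IPOD library it was 0.34 (adjusted p = 0.409). It was called when the 6 Col0 libraries were fitted alone (adjusted p = 0.0365), where 19.1% were called. The same difference was 0.49, 1.47, 0.46 and −0.17 in leaf, a mean of 0.56 (SE 0.42, adjusted p = 0.941, rank 5 of 220, with 0% called and 10 at an unadjusted p under 0.05). In ptac3 it was 0.51, −0.014 and −0.039, a mean of 0.15 (SE 0.18, adjusted p = 0.992, with 0% called and 9 at an unadjusted p under 0.05). With the number as a block the limma adjusted p was 0.193 in leaf and 0.415 in ptac3. Those fits called 4.55% and 1.36% of such differences. The higher ratio lay upstream in every Col0 seedling pair, 3 of 4 leaf pairs and 1 of 3 ptac3 pairs. Col0 numbers were not taken as pairs, so their count rests on the numbering, and the largest seedling value was that of ptac3 pair 1. The difference between genotypes was −0.12 (SE 0.25, limma adjusted p = 0.918, with 0.909% called, and −0.18 without the third Col0 IPOD library).

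In 50 bp bins, the highest ratio of the operon fell in the same bin in leaf and in Col0 seedlings. It is plastid 72151 to 72200 (numbering of the files, TAIR10), between 220 and 171 bp upstream of psbB. Its relative depth was 2.23, 2.21, 1.97 and 0.735 in leaf IPOD libraries 1 to 4, against 1.22, 0.744, 1.23 and 0.8 in leaf input. In Col0 seedlings it was 0.864, 0.865 and 0.673 in IPOD against 0.52, 0.528 and 0.603 in input, and in ptac3 seedlings 0.623, 0.709 and 0.807 in IPOD against 0.465, 0.692 and 0.691 in input. IPOD and input overlapped in leaf and ptac3 seedlings. They did not in Col0 seedlings, as in 34.5% of all bins there.

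The mean log2 ratio of this bin was 0.70 in leaf (SD 0.65, n = 4 pairs, limma adjusted p = 0.764, rank 61 of 2564 bins). It was 0.21 in ptac3 seedlings (adjusted p = 0.996) and 0.47 in Col0 seedlings (SD 0.29, n = 3 pairs, adjusted p = 0.115). The Col0 pairs gave 0.65, 0.62 and 0.14, so pair 3 was low, and without the third IPOD library the mean was 0.58 (adjusted p = 0.0902). The genotype difference was −0.26 (adjusted p = 0.655, and −0.37 without that library). In Col0 seedlings the bin was called with robust variances (adjusted p = 0.0311), with centred libraries (0.0347), with the Col0 libraries alone (0.00992) and without ptac3 input library 1 (0.0393), in fits that called 3.74% to 15% of all bins.

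**Figure D3:**
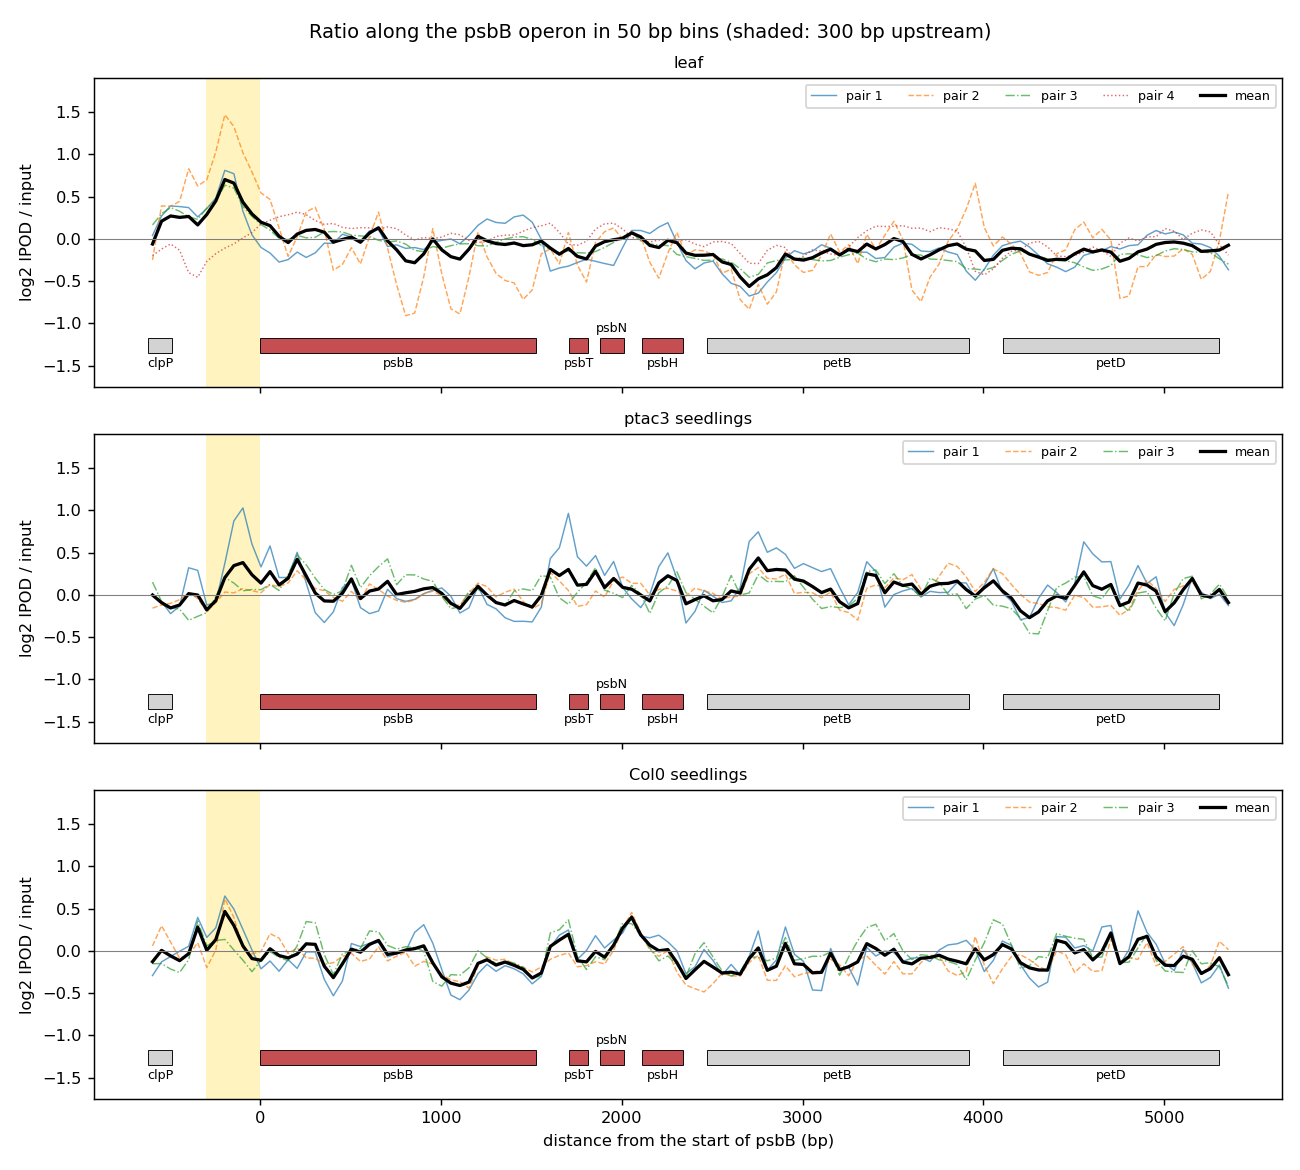
Log2 ratio of IPOD to input in 50 bp bins against distance from the start of psbB, in leaf, ptac3 and Col0 seedlings, with thin lines for pairs of libraries, a black line for their mean and the upstream window shaded. A peak about 200 bp before psbB reaches a mean of 0.70 in leaf and 0.47 in Col0 seedlings, while pair 4 of leaf (−0.11) and pair 3 of Col0 (0.14) do not show it.

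Inside the operon the bins rose and fell by position. In Col0 seedlings the lowest bin was 73451 to 73500 in psbB, with relative depths of 1.6, 1.85 and 1.84 in IPOD and 2.42, 2.39 and 2.26 in input. All 3 IPOD values lay below all 3 input values, where 34.5% of all bins had no overlap, and the ratio was −0.41 (SD 0.15, limma adjusted p = 0.134). It was −0.44 without the third IPOD library (adjusted p = 0.177). The bin was called with robust variances (adjusted p = 0.0469), with the trend of input level removed (0.0456) and with the Col0 libraries alone (0.0153), in fits that called 5.23% to 15% of all bins. ptac3 seedlings had 1.96, 1.76 and 1.41 in IPOD and 2.29, 1.93 and 1.58 in input there, a ratio of −0.16 (adjusted p = 0.996). The lowest leaf bin was 73201 to 73250, also in psbB, at −0.28 (SD 0.40, adjusted p = 0.764), with −0.88 in pair 2 and −0.013 to −0.14 in the other pairs.

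Between psbN and psbH, bin 74401 to 74450 was high in Col0 seedlings, with relative depths of 0.712, 0.79 and 0.655 in IPOD and 0.511, 0.546 and 0.507 in input. The pairs gave 0.42, 0.46 and 0.32 (mean 0.40, limma adjusted p = 0.167, and 0.46 without the third IPOD library, adjusted p = 0.191), against a mean of 0.068 in ptac3 seedlings and 0.072 in leaf. In Col0 seedlings it was called with centred libraries (adjusted p = 0.0396) and with the Col0 libraries alone (0.0178), where 3.74% and 15% of all bins were called. This bin was named after its values were seen. The highest ptac3 bin was 72551 to 72600, early in psbB, at 0.825, 0.898 and 0.965 in IPOD and 0.56, 0.721 and 0.673 in input. Its ratio was 0.42 (SD 0.12, adjusted p = 0.996), rank 5 of 2564 bins, and its Col0 ratio was −0.036. The genotype difference there was 0.46 (unadjusted p = 0.0307, adjusted p = 0.555), and 0.55 without the third Col0 IPOD library (adjusted p = 0.418). The lowest ptac3 bin, 72051 to 72100 upstream, stood at −0.18 (SD 0.049, adjusted p = 0.996).

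limma called 0 of the 53 bins of the operon and its upstream window in leaf, in ptac3 seedlings, in Col0 seedlings and between genotypes. Over all 2564 bins it called 0% in leaf, 0% in ptac3 seedlings, 3.2% in Col0 seedlings and 0% between genotypes. At an unadjusted p under 0.05 there were 0 operon bins in leaf, against 4.21% of all bins. There were 4 in ptac3 seedlings, all higher in IPOD, which is 7.55% of the operon bins against 1.68% of all bins. In Col0 seedlings 2 were higher and 7 lower, which is 17% against 20.8%. Between genotypes there was 1, which is 1.89% against 8.35%.

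**Figure D4:**
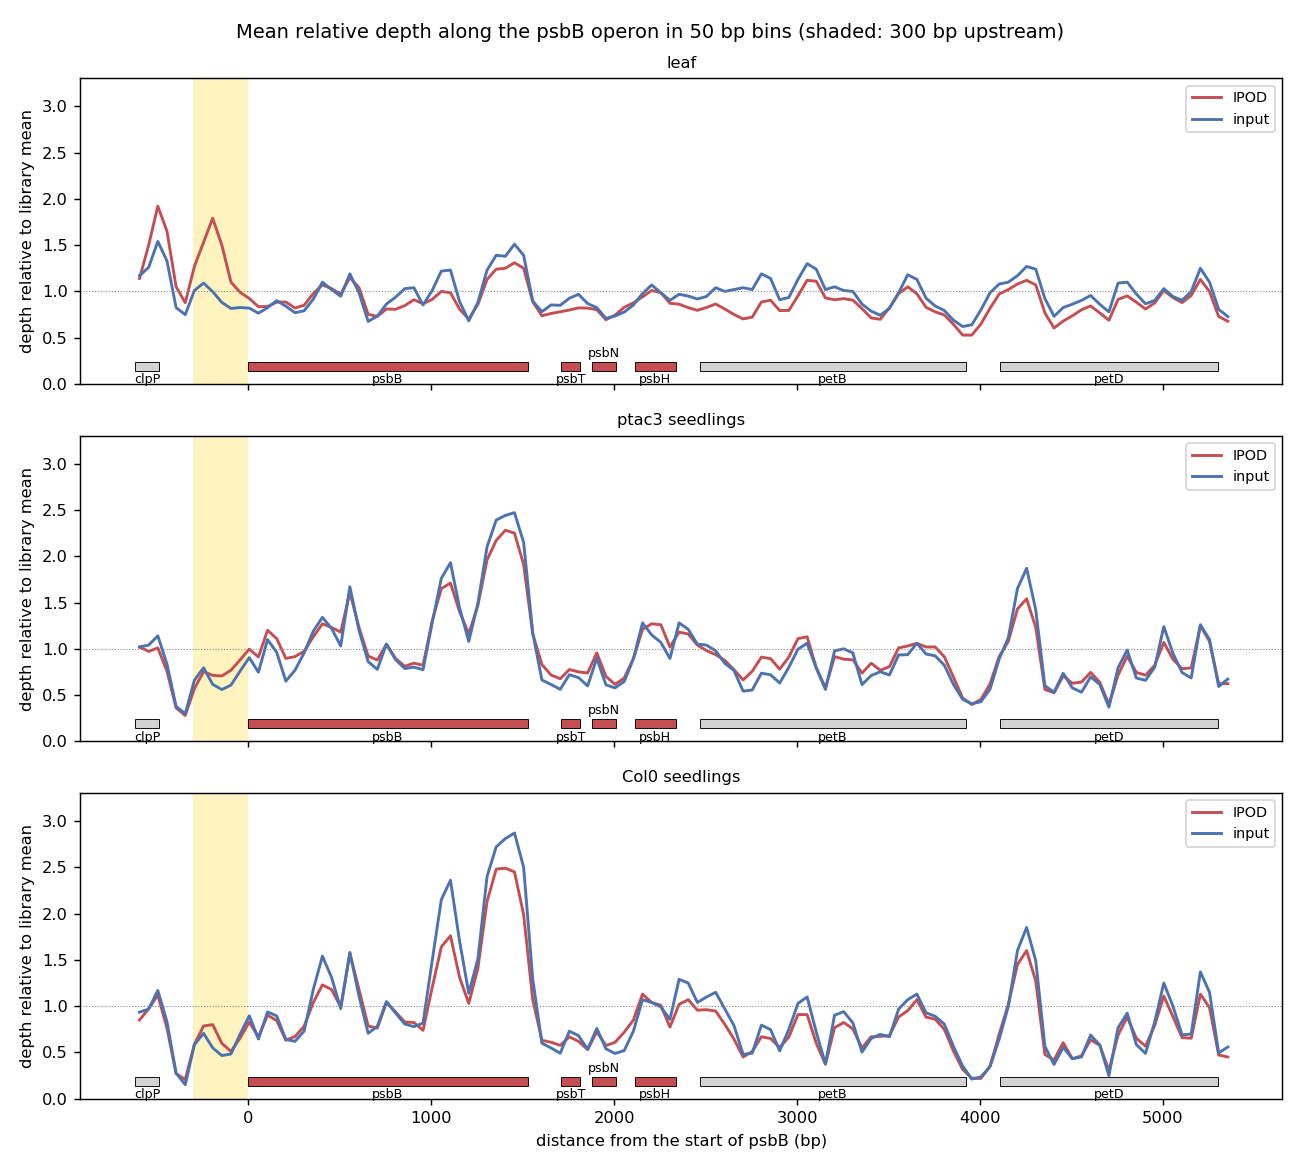
Mean relative depth in 50 bp bins against distance from the start of psbB, with IPOD in red and input in blue, in leaf, ptac3 and Col0 seedlings. Seedling depth peaks near the end of psbB in both fractions, at 2.28 in ptac3 IPOD, 2.47 in ptac3 input, 2.49 in Col0 IPOD and 2.87 in Col0 input.

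Both fractions of the seedlings shared a strong profile of depth along psbB. The highest bin of the operon was in the last part of psbB in all 4 seedling groups, at a mean relative depth of 2.28 in ptac3 IPOD, 2.47 in ptac3 input, 2.49 in Col0 IPOD and 2.87 in Col0 input. The lowest bins lay upstream of psbB, at 0.57, 0.56, 0.511 and 0.467 in the same groups. In leaf input the bin with the highest mean was the same as in seedling input, at 1.51, and the lowest mean was 0.676. The leaf input libraries differed in this. In the adjoining bin, 73851 to 73900, libraries 1 to 4 had 0.75, 2.46, 0.867 and 1.48. In the upstream bin 72101 to 72150 they had 1.38, 0.654, 1.33 and 0.987. In leaf IPOD the bin with the highest mean was the upstream bin 72151 to 72200, at 1.79. Gene means of relative depth thus average over bins that differ several-fold, and the high level of psbB in seedlings is seen in input as well as IPOD.

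Set against each other, ptac3 and Col0 seedlings did not differ by a called amount at any of the 5 regions. The difference of log2 ratios, ptac3 minus Col0, was 0.15 for psbB (SE 0.11, limma adjusted p = 0.362, 95% interval −0.081 to 0.39). It was 0.23 for psbT, 0.097 for psbN, 0.10 for psbH (adjusted p = 0.363, 0.579 and 0.481) and 0.028 for the upstream window (SE 0.19, adjusted p = 0.981). The psbB ratios were −0.089, 0.0096 and 0.095 in ptac3 pairs and −0.20, −0.14 and −0.096 in Col0 pairs, and did not overlap. The same held for 49.5% of the 111 genes. limma called 0 of the 4 genes and 0 had an unadjusted p under 0.05, while it called 2.7% of all genes, all 3 lower in ptac3, and 16 genes had an unadjusted p under 0.05. Among the windows 1.36% were called. Without the third Col0 IPOD library the difference was 0.16 for psbB (adjusted p = 0.383) and −0.024 for the upstream window. The difference upstream also turned negative without ptac3 input library 1, at −0.16.

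The input libraries of the 2 genotypes were compared in the same way, as the background of these ratios. psbN had relative depths of 0.622, 0.743 and 0.797 in ptac3 input, against 0.625, 0.638 and 0.599 in Col0 input, and psbH 1.06, 1.11 and 1.15 in ptac3 input against 0.92, 1.03 and 1.03 in Col0 input. The psbH libraries of the genotypes did not overlap, as those of 15.3% of the 111 genes, and those of psbN did. The log2 differences were 0.19 for psbN and 0.15 for psbH (SE 0.083 and 0.064, unadjusted p = 0.0379 and 0.0376, limma adjusted p = 0.351 for each), and −0.078 for psbB and 0.0010 for psbT (adjusted p = 0.599 and 0.993). limma called 0 of the 4 genes, 2 with an unadjusted p under 0.05, against 0% of all genes called and 13 at an unadjusted p under 0.05. Without ptac3 input library 1, psbN was called (0.29, adjusted p = 0.0384), where 9.01% of genes were. Without the same library the upstream window was called too (0.33, adjusted p = 0.0324), against 0.15 with it (adjusted p = 0.489), where 30% of windows were called without the library and 0% with it, of which 41 had an unadjusted p under 0.05.

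The other 11 photosystem II genes of the plastid were not called in any of these comparisons without pairing, with 10, 5, 27, 16 and 13 of all 111 genes at an unadjusted p under 0.05 in leaf, ptac3 seedlings, Col0 seedlings, between genotypes and in input. In leaf their median log2 ratio was 0.073, against −0.065 for the 4 operon genes and −0.063 for all 111 genes. It ran from −0.13 in psbL, a small subunit (adjusted p = 0.661), to 0.73 in psbA, the gene of the D1 reaction centre protein (adjusted p = 0.244). With the library number as a block, psbA was called in leaf (adjusted p = 0.0292), 1 of the 11 genes against 17.1% of all genes. In ptac3 seedlings the median was 0.067, against 0.11 for the operon genes and 0.032 for all genes. psbZ, another small subunit, was highest at 0.20 and psbF, of cytochrome b559, lowest at −0.076 (adjusted p = 0.953 for each). In Col0 seedlings the median was −0.056, against −0.052 for the operon genes and −0.046 for all genes. psbA was highest at 0.15 (adjusted p = 0.13) and psbK, a small subunit, lowest at −0.24 (adjusted p = 0.0844). Between genotypes psbZ was highest at 0.37 (adjusted p = 0.109) and psbA lowest at −0.13 (adjusted p = 0.35), with medians of 0.14, 0.13 and 0.088 for these genes, the operon genes and all genes. In input, ptac3 minus Col0, they ran from −0.17 in psbK to 0.27 in psbL (adjusted p = 0.399 and 0.357).

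**Figure D5:**
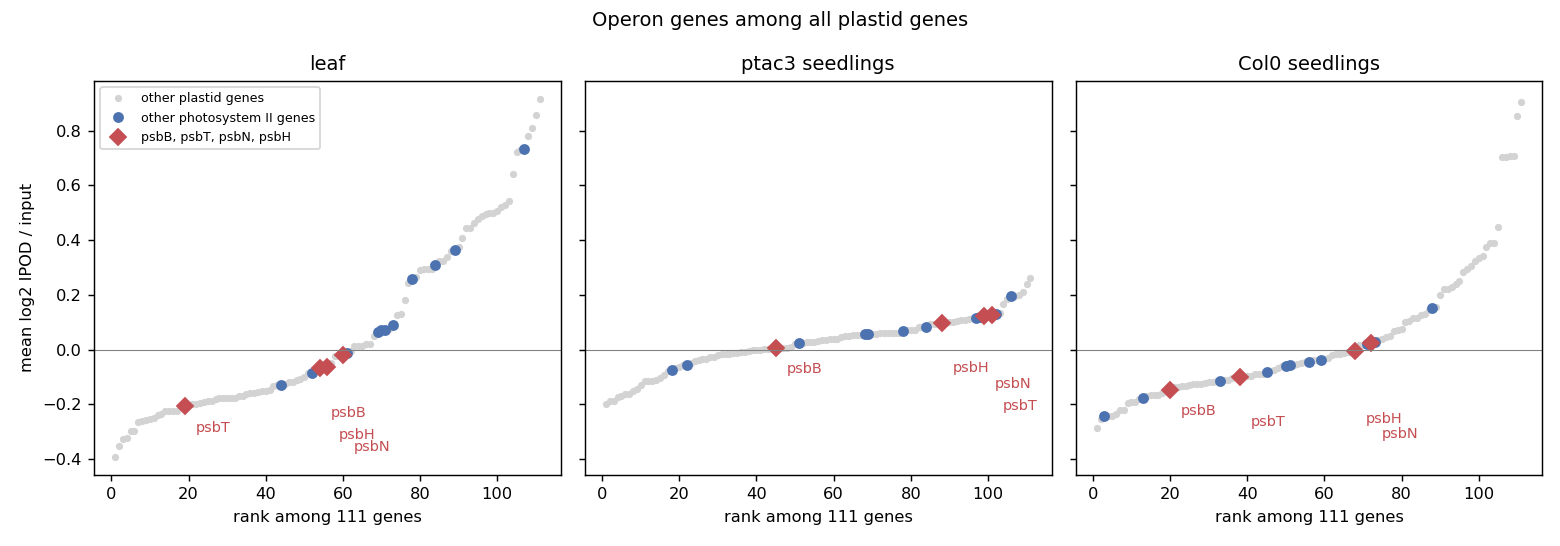
Mean log2 ratio of IPOD to input of the 111 plastid genes, ranked from low to high in leaf, ptac3 and Col0 seedlings, with the operon genes in red and 11 other photosystem II genes in blue. The operon genes lie from −0.21 to −0.020 in leaf, from 0.0052 to 0.13 in ptac3 and from −0.15 to 0.026 in Col0 seedlings, within the range of the other genes in each panel.

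Across the 10 pairs of libraries, the gene bodies and the upstream window did not move as 1 unit. Pearson's r of the log2 ratios was −0.71 between psbB and the window before it. That value leaned on leaf pair 2, which had both the highest ratio of the window (1.12) and the lowest of psbB (−0.346). Pearson's r was 0.24 between psbB and psbT, −0.082 between psbB and psbN, 0.33 between psbB and psbH, 0.65 between psbT and psbN, and 0.72 between psbT and psbH (n = 10 ratios from 20 libraries of 3 conditions). The genes whose ratios were most like those of psbB were rpl2, a ribosomal protein gene, and psaB and psaA, which encode the reaction centre proteins of photosystem I, with r of 0.91, 0.91 and 0.85. psbH ranked 43, psbT 48 and psbN 67 of 110 genes by this measure. These are descriptions, since the ratios share libraries, scaling and the split among leaf libraries.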

How the data were processed

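The 2 tables hold sequencing depth per base of the plastid genome for 20 libraries, a coverage signal deposited as whole numbers of reads over each of 154477 positions, 1 column per library and with no scaling, per the file headers. A read covers many bases, so no count model was used. The submitters' processing notes name Trim Galore 0.4.1, Bowtie2 2.2.8.9, bedtools 2.25.0 and TAIR10. The placement of reads shared by the copies of the inverted repeat is not given in the sources used here. Libraries were grouped by title.

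Genes came from a RefSeq gene table of TAIR10.1, none of whose coordinates is printed. Its numbering was checked against the depth on the inverted repeat, where 7 of 7 genes with 2 copies, and the depth of 20 of 20 libraries, gave the same sum of mirrored positions (238649). With 1 copy kept this left 111 genes of at least 70 bp, 220 windows of 300 bp and 2564 bins of 50 bp. The table gives no strand, so windows on both sides of each gene were tested in place of upstream windows alone, and the direction of psbB was taken from the known order of its operon. No sequence was used, and a planned motif search was not run. A filter on features with a depth of 0 in most libraries removed 0 features.

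Ratios are differences of log2(depth / library mean + a pseudocount of 10% of the median bin), which understates those of low regions. They were tested with limma 3.58.1 in R 4.3.3, in 1 fit for leaf and 1 for the 12 seedling libraries. The threshold was 0.05 for p adjusted by Benjamini-Hochberg within each table of features. Scripts were tested on simulated data.

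Equal library numbers in IPOD and input were taken as pairs where the deviations of both from their group means correlated above 0.1 in every pair. In leaf r was 0.843, 0.805, 0.916 and 0.626 and in ptac3 seedlings 0.771, 0.228 and 0.75, so both were taken as paired. In Col0 seedlings it was 0.257, 0.221 and 0.0229, so neither Col0 seedlings nor the genotype difference was. In leaf the likeness of libraries 1 and 3 also enters r. Leaf libraries of unequal number reached an r of 0.882, and 4 of 4 IPOD and 3 of 4 input libraries correlated best with their own number. In Col0 seedlings the highest r of unequal numbers was 0.073. Ratios per pair set libraries of the same number side by side. The main limma fits held no term for pairs in any group, so their p-values for leaf and ptac3 seedlings ignore this pairing. Fits with the number as a block are named as such.

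The members and lists were chosen with earlier results of these data known. The genes named are the members, clpP, petB and petD, the highest and the lowest other photosystem II gene per comparison, the 3 genes most like psbB, and the highest and the lowest operon bin. Alternatives covered the pseudocount, scaling, repeat copies, variance model, trend with input level, window and bin size, median depth, pairing and single libraries.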

Additional observations from a re-analysis of the deposited data

How the results depend on the processing

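Each of the 38 results was recomputed under the alternatives, 907 values in all, of which 836 kept their direction and their side of the threshold. A filter on low depth removed no feature, so it gave the same values. Values below are log2 differences unless they count calls, and the cause of a change was not tested except where fewer libraries were used. With the replicate block, 9 operon bins were called in Col0 seedlings and 1 between genotypes, where 25.1% and 7.25% of all bins were called. The upstream window minus psbB was also called with the block in Col0 seedlings (0.277, limma adjusted p = 0.0135), where 28.6% of such differences were called. By the rule of r above 0.1 in every pair the Col0 libraries were not taken as paired. Still, 2 of 3 IPOD and 3 of 3 input libraries of Col0 seedlings correlated best with their own number. The block changed no other call of the members or the window. Among other genes named it called psbA in leaf and, in Col0 seedlings, psbA (adjusted p = 0.0286) and psbK (0.0239), and between genotypes psbZ (0.0186) and petB (0.0386), in fits that called 17.1% to 32.4% of all genes. With the Col0 libraries alone the upstream window minus psbB (0.277) and 6 operon bins were called. In those fits 19.1% of such differences and 15% of all bins were called. Robust variances called 6 operon bins in Col0 seedlings, centred libraries called 2, and removal of the trend with input level called 1. Over all bins these fits called 11.1%, 3.74% and 5.23%.

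Centring turned the sign of psbB (0.0438), psbN (0.0908) and psbH (0.0476) in leaf, psbB in ptac3 seedlings (−0.0471), psbH in Col0 seedlings (0.0328), and psbT (−0.0356) and the upstream window (−0.0019) in input. Scaling by the large single-copy region turned psbB in ptac3 seedlings (−0.0132), psbH in Col0 seedlings (0.0396), the window between genotypes (−0.034) and psbT in input (−0.0609). Removing the trend turned psbB (0.0389), psbN (0.0274) and psbH (0.0323) in leaf, psbH in Col0 seedlings (0.0536), and psbN (−0.0306) and the window (−0.0349) between genotypes. A pseudocount of 1% turned psbH in Col0 seedlings (0.00131) and psbT in input (−0.00827), and one of 50% turned psbN in Col0 seedlings (−0.00612). With a window of 150 bp the window minus psbB stood at 0.127 between genotypes, and with 500 bp the window stood at −0.00628.

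Leaf libraries 1 and 3 were set apart by these same depths, so their calls are no independent test. In them alone, 1 operon gene (psbT, −0.217) and 8 operon bins were called, with the window (0.462) and the window minus psbB (0.474). These fits called 74.8% of all genes, 63.7% of all bins, 75% of all windows and 33.6% of all differences of window and gene. In libraries 2 and 4 alone psbN stood at 0.127. Leaving out leaf pairs with the block, chosen after seeing the data, gave 1 called gene (psbT, −0.254), 5 called bins and the called window (0.683) without pair 4, 0.0658 for psbN without pair 1 and 0.0266 for psbB without pair 2. Without pair 4 the block fits called 55.9% of all genes, 32.9% of all bins and 58.6% of all windows.

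Leaving out 1 library or leaf pair at a time gave −0.157 to 0.0363 for psbB, −0.158 to 0.0979 for psbN and −0.142 to 0.0631 for psbH in leaf. In ptac3 seedlings it gave −0.0719 to 0.0786 for psbB, −0.0221 to 0.218 for psbT, −0.0281 to 0.268 for the window and −0.107 to 0.34 for the window minus psbB. In Col0 seedlings it gave −0.00223 to 0.0485 for psbN and −0.0567 to 0.0232 for psbH. There it also gave 0 to 1 called operon bins, the 1 without ptac3 input library 1, where 5.62% of all bins were called. Between genotypes it gave −0.0015 to 0.169 for psbN, −0.158 to 0.138 for the window and −0.383 to 0.0632 for the window minus psbB. In input it gave −0.0887 to 0.151 for psbT, 0.122 to 0.292 for psbN, 0.0346 to 0.331 for the window and 0 to 1 called genes.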
